A study of Mus musculus with 4 samples.

Results

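Potassium channel subunit genes in the mouse hippocampus were compared 1 day after orthopedic surgery. A gene was taken as a member when its row was protein coding and its symbol began with Kcn, followed by a family letter or letters and a number. Leaving out 1 such gene that is not analysed here, this gave 90 of the 29300 genes in the table, 74 for subunits that line the pore and 16 for auxiliary subunits that bind to them. By class, 40 were voltage-gated pore-forming subunits, 12 voltage-gated auxiliary subunits, 13 inward rectifiers, 13 two-pore subunits and 12 subunits of the calcium-activated group, which also holds the sodium-activated Kcnt genes. All mice were male C57BL/6 animals of 7 to 8 months that received isoflurane and the analgesic tramadol. In the surgery group (2 mice) the tibia was fractured and fixed with a pin, a model of perioperative neurocognitive disorder, and the control group (2 mice) had the anesthesia and analgesia alone. Poly(A) RNA of each hippocampus was sequenced as 150 nt paired reads, and each mouse gave 1 library of whole-number gene counts, with totals of 15763432 to 18573386.

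Potassium channels let potassium ions leave or enter the cell and so set the resting potential and the firing pattern of neurons. Voltage-gated channels end the action potential and limit repetitive firing, inward rectifiers hold the membrane near rest, two-pore channels carry a background leak, and calcium-activated channels produce the potential that follows a spike. Most are assembled from several pore subunits, often of more than 1 gene, and auxiliary subunits change their gating and their delivery to the membrane.

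The pore of each class is lined by the selectivity filter, a short conserved run of residues that passes potassium. A search of the translated coding sequence of each member for this run of 5 residues, with fixed glycines and a few allowed substitutes at the other places, found it in 74 of 74 pore-forming genes and in 0 of 16 auxiliary genes, with 2 copies in each of the 13 two-pore genes and 1 in the other 61. The coding DNA around the filter is shown for 2 pairs of related subunits whose levels are set side by side further on, and for Kcns3 and Kcnk12, which fell. Each stretch holds 45 bases of the sense strand from the GENCODE M21 transcript (GRCm38/mm10), 5′ to 3′, with the 5 codons of the filter in capitals.
The first pair, Kcnj3 (chr2:55437612-55437656, plus strand) and Kcnj9 (chr1:172326169-172326213, minus strand), differed at 8 of 45 bases and at 1 of the capitals.
Kcnj3: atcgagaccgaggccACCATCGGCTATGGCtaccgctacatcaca
Kcnj9: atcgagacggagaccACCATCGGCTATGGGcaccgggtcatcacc
The second pair, Kcnt1 (chr2:25894352-25894396, plus strand) and Kcnt2 (chr1:140425263-140425307, plus strand), differed at 11 of 45 bases and at 2 of the capitals.
Kcnt1: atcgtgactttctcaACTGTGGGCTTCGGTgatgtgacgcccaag
Kcnt2: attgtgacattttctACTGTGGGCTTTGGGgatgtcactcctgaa
In both pairs the capitals encode the same residues. For Kcns3 the stretch lies in its last coding exon (chr12:11091560-11091604, minus strand), and for Kcnk12 the first of its 2 filters is shown (chr17:87746819-87797085, minus strand, split by an intron).
Kcns3: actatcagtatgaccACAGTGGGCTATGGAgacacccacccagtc
Kcnk12: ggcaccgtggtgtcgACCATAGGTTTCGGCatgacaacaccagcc

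Of the 90 members, 78 had enough counts to be tested. The other 12 (Kcna7, Kcna10, Kcnv2, Kcne1, Kcne3, Kcnj5, Kcnj15, Kcnk7, Kcnk15, Kcnk18, Kcnmb3 and Kcnn4) had at most 10 counts in any mouse. Levels were compared between genes as CPM (counts scaled to the TMM-normalised library size) per kilobase of exon, averaged over the 4 mice. The highest of all members was Kcnab2 at 166 CPM per kb, the auxiliary subunit that binds the Kcna channels in axons. It was followed by Kcnip2 at 58.8, a calcium-binding partner of the Kcnd channels. The highest inward rectifier was Kcnj4 at 37.8, the highest two-pore gene was Kcnk1 at 27.7, and the highest calcium-activated gene was Kcnma1, the large-conductance channel, at 15.1.

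**Figure D1:**
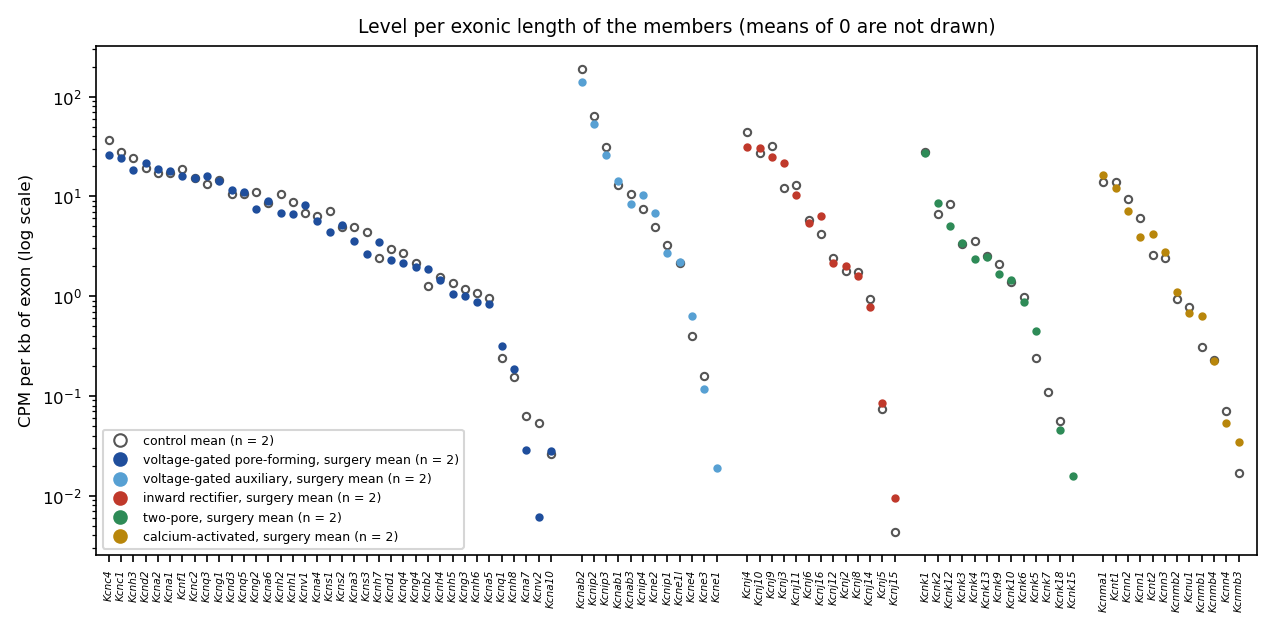
Level of potassium channel genes in CPM per kb of exon on a log axis, with the classes apart, open circles for the mean of the control mice and filled circles for that of the surgery mice (n = 2, means of 0 not drawn). Kcnab2 stands at the top, with 190 CPM per kb in both control mice and 144 and 138 CPM per kb in the surgery mice.

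Surgery and control mice were compared gene by gene with edgeR's quasi-likelihood test over the 17144 genes with enough counts, and p-values were adjusted by Benjamini-Hochberg over all of them. A gene passed when its adjusted p was under 0.05, and a gene that passed with a fold change over 1.5 or under 0.67, the limits of the study, counted as differentially expressed (DEG). Of the 78 tested members, 27 passed (34.6%), against 26.0% of all genes tested, with 8 higher and 19 lower where 13.1% and 12.8% of all genes were higher and lower. Of these, 10 members were DEGs (12.8%, against 9.01% of all genes). The 4 higher DEGs (all genes, 6.75%) were Kcnj3, Kcnj16, Kcnt2 and Kcnmb1, and the 6 lower DEGs (all genes, 2.25%) were Kcns3, Kcns1, Kcnh2, Kcnk12, Kcnk4 and Kcnn1. The median log2 fold change of the members was -0.13, and that of all genes tested was 0.01, or -0.059 and -0.032 with the offsets for transcript length and GC content described below. The share that passed was 32.4% for voltage-gated pore-forming genes, 40% for auxiliary genes, 36.4% for inward rectifiers, 30% for two-pore genes and 40% for the calcium-activated group, each to be read against the 26.0% of all genes. In 50 of the 78 members (64.1%) the surgery mice did not overlap the control mice in CPM, near the 65.5% of all genes. In bulk tissue, fewer cells of a type and less RNA per cell cannot be told apart.

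The counts depended on single mice. In all 27 passed members the surgery mice did not overlap the control mice. That all 27 kept their sign whichever mouse was left out was therefore largely fixed in advance. When the second control mouse was left out, 11 of the 27 still passed (2 members higher and 12 lower in all, all genes 13.5%), and 2 members were higher and 4 lower DEGs (all genes 5.64%). When the second surgery mouse was left out, 12 of the 27 still passed (3 higher and 12 lower in all, all genes 16.4%), and 2 were higher and 3 lower DEGs (all genes 6.59%). Leaving out the first control mouse kept 18 of the 27 calls (6 higher and 13 lower in all, all genes 19.6%), and leaving out the first surgery mouse kept 22 (8 higher and 17 lower in all, all genes 22.9%). With 2 mice a group, the p-values rest on the spread between these few animals.

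**Figure D2:**
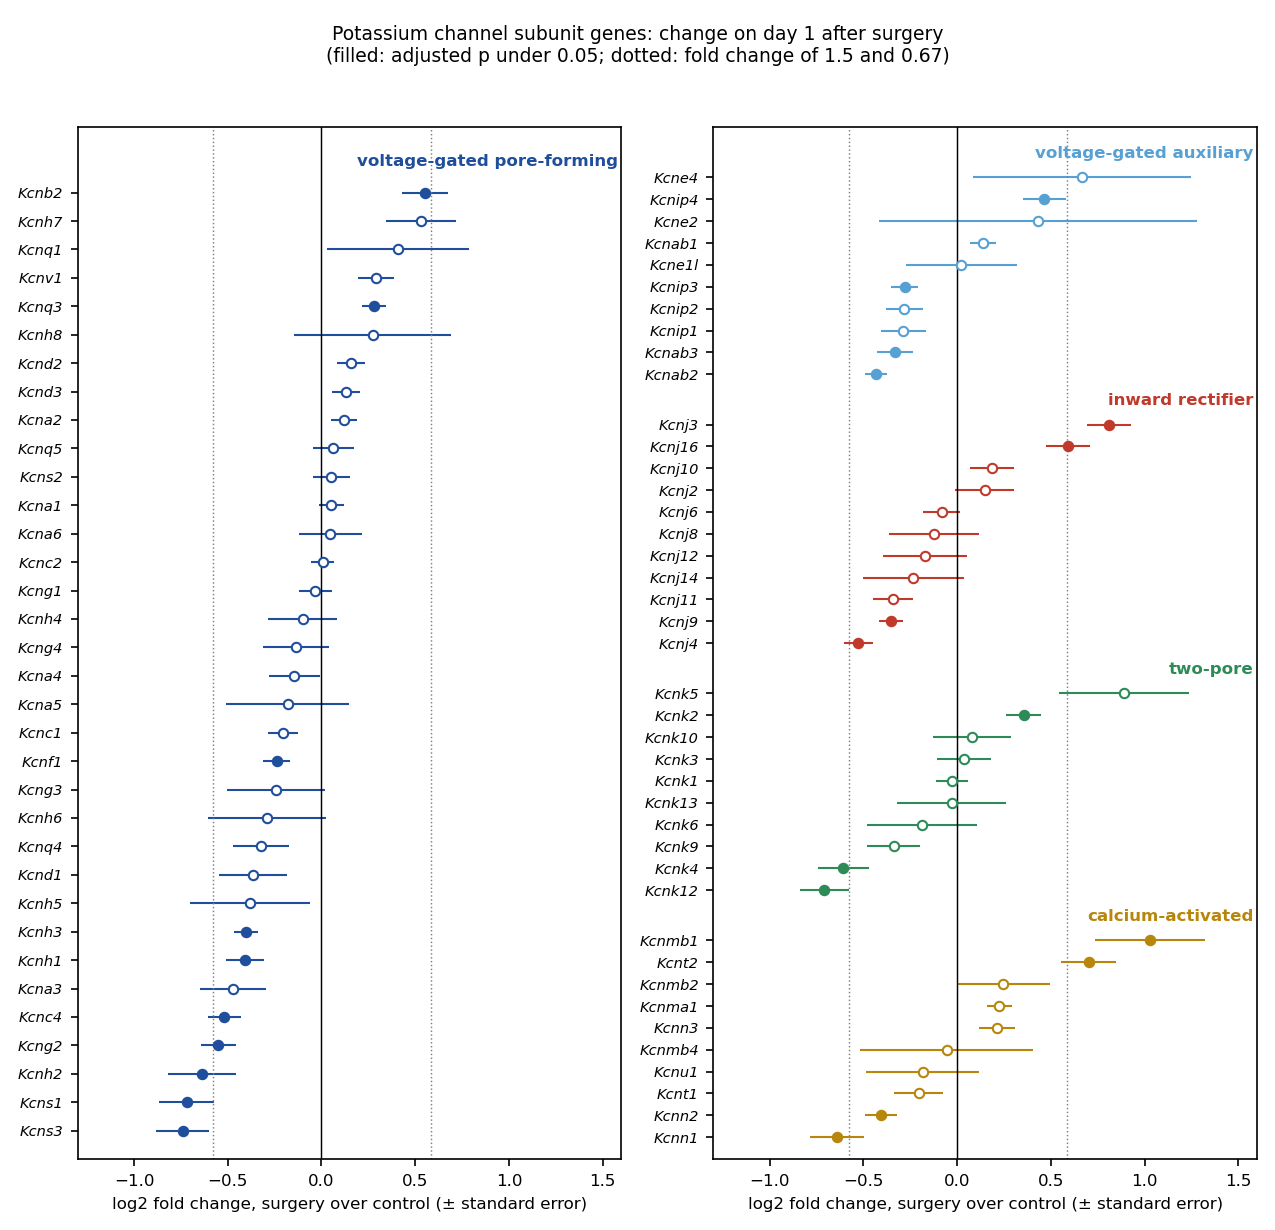
Log2 fold change (surgery over control) of tested members by class, with bars of 1 standard error, color for the class, filled points for genes that passed and dotted lines at the fold limits of a DEG. Points run from -0.74 for Kcns3 to 1.03 for Kcnmb1, and most filled points lie below 0.

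The fold changes also followed base composition. Over the 78 members, Spearman's rho between transcript GC content and log2 fold change was -0.68, and over 17120 genes it was -0.64 (a description across genes, which share libraries and are not independent replicates). The median GC content was 43.3% in the 8 members that rose, 58.0% in the 19 that fell and 52.1% in the 51 that did not pass. Among 13 members below 45% GC, 5 rose, where 42.2% of all genes in that range rose, and the rest did not pass. Their median log2 fold change was 0.29, against 0.48 for all those genes. Among 23 members from 55% to 60% GC, 9 fell, where 32.2% of all genes in that range fell, and the rest did not pass, with a median of -0.28, against -0.29 for all those genes. Among 6 members with over 60% GC, 5 fell, where 39.6% of all genes in that range fell, with a median of -0.59, against -0.39. When the fit was given offsets for transcript length and GC content, rho was 0.0049 and 1 of the 27 members, Kcns3, still passed, where 1.59% of all genes passed and 0.742% were DEGs. The part of base composition, or of whatever moves with it in these libraries, in the single results was not tested, and the corrected log2 fold change is therefore given beside each DEG.

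**Figure D3:**
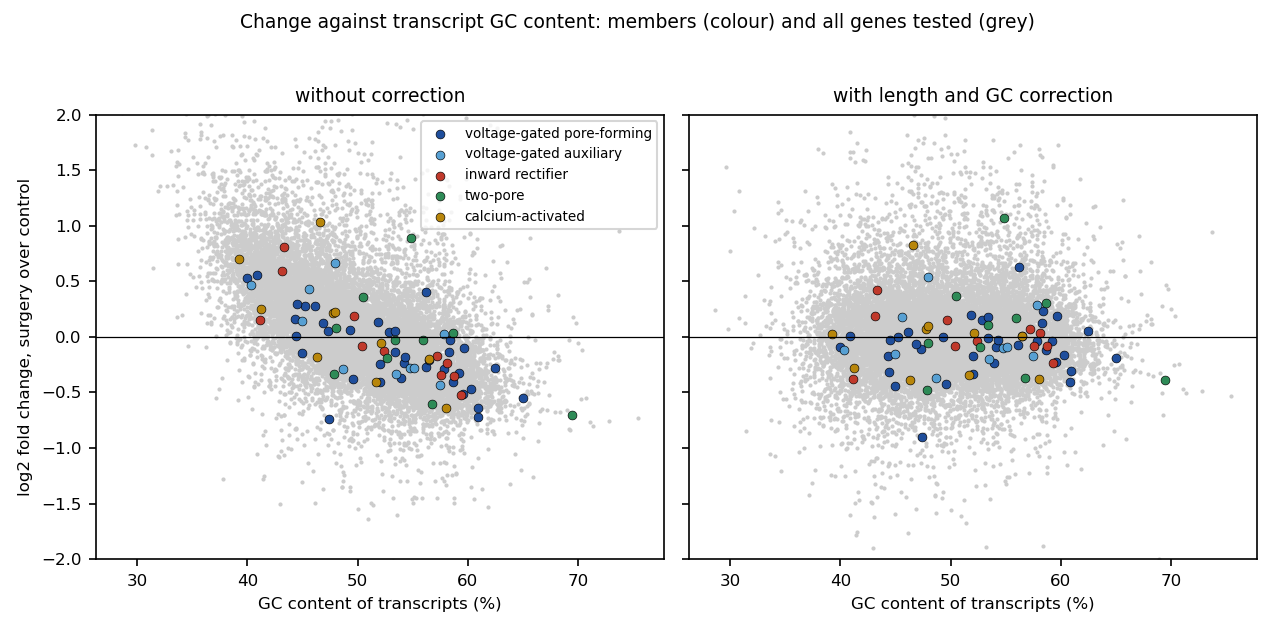
Log2 fold change (surgery over control, axis limited to -2 to 2) against transcript GC content in percent for all genes tested and for the potassium channel genes, before and after offsets for length and GC content. Members follow the slope of all genes before the offsets (rho -0.68 and -0.64), and their rho is 0.0049 after them.

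Among the 37 tested voltage-gated pore-forming genes, 2 rose, 10 fell and 25 did not pass, and the class median was -0.15 on the log2 scale, or -0.065 with the offsets. The 3 DEGs of this class all fell. Kcns3 and Kcns1 encode electrically silent subunits, which form no channel alone and modify the Kcnb channels, and Kcnh2 encodes the ERG channel that is also known from cardiac repolarization.

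Kcns3 (chromosome 12, 11090202 to 11151056, minus strand, mm10) had 14.7 and 13.3 CPM in the control mice and 8.53 and 8.24 CPM in the surgery mice. Both surgery mice lay below both control mice, and the spread within each group was under 1 CPM (SD 0.946 and 0.206, n = 2). The log2 fold change was -0.74 (SE 0.14, edgeR adjusted p = 0.014), a level of 0.598 times the control. With the length and GC offsets it was -0.90 (adjusted p = 0.044), and over every alternative run the adjusted p lay between 0.011 and 0.049. Its transcripts had 47.4% GC, and it was the 1 member that fell among the 17 with 45% to 50% GC, a range in which 2.97% of all genes fell.

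Kcns1 (chromosome 2, 164163619 to 164171113, minus strand) had 17.3 and 21.5 CPM in controls, against 11.9 and 11.7 CPM after surgery. The surgery mice were nearly alike and below both control mice, which lay further apart. Its log2 fold change was -0.72 (SE 0.15, edgeR adjusted p = 0.017), or -0.41 with the offsets, where it did not pass. It did not pass without the second, higher control mouse (-0.56) either.

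Kcnh2 (chromosome 5, 24319589 to 24351604, minus strand) had 41.4 and 61.5 CPM in the control mice and 33.7 and 32.5 CPM in the surgery mice. The groups did not overlap, but the control mice were further from each other than the lower of them was from the surgery mice. The log2 fold change was -0.64 (SE 0.18, edgeR adjusted p = 0.044). Without the second control mouse it was -0.33, with the offsets -0.31 and without the second surgery mouse -0.61, and in none of these did it pass.

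A further 7 voltage-gated pore genes fell by less than the DEG limit. The largest of these falls were those of Kcng2 (log2 fold change -0.55), another silent subunit, and of Kcnc4 (-0.52), whose family gives fast-spiking neurons their brief action potentials. Kcnc4 had 125 and 146 CPM in controls, against 93.1 and 96.1 CPM after surgery. Kcnh1 (-0.41), Kcnh3 (-0.40) and the silent subunit Kcnf1 (-0.24) fell as well. Kcng2, Kcnc4 and Kcnh3 passed whichever mouse was left out. With the offsets none of these 5 genes passed, at -0.19 for Kcng2, -0.23 for Kcnc4, -0.12 for Kcnh3, -0.33 for Kcnh1 and -0.094 for Kcnf1. Kcnh1 did not pass without the second control mouse (-0.28) or either surgery mouse (-0.41 and -0.42), and Kcnf1 lost the call whichever mouse was left out (-0.29 to -0.20).

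The 2 voltage-gated pore genes that rose were Kcnb2 and Kcnq3. Kcnb2, a delayed rectifier, had 18.9 and 19.8 CPM in the control mice and 25.8 and 31.0 CPM in the surgery mice (log2 fold change 0.55, SE 0.12, edgeR adjusted p = 0.021). Kcnq3, a subunit of the M-current, had 204 and 187 CPM in controls, against 237 and 238 CPM after surgery (0.28, SE 0.066, adjusted p = 0.025). Neither gene's groups overlapped, and their corrected log2 fold changes were 0.0049 for Kcnb2 and -0.00016 for Kcnq3. Kcnb2 did not pass without either control mouse (0.51 and 0.59) or the second surgery mouse (0.42), and Kcnq3 did not without the second control mouse (0.21) or either surgery mouse (0.27 and 0.28). The 25 genes of this class that did not pass, among them the Kcna and Kcnd genes, had log2 fold changes from -0.47 to 0.53.

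Of the 10 tested voltage-gated auxiliary genes, 1 rose and 3 fell, each within the fold limits of a DEG. Kcnab2, the most abundant member, had 1061 and 1062 CPM in the control mice and 804 and 767 CPM in the surgery mice. The control mice were almost equal and both surgery mice were lower, with a log2 fold change of -0.43 (SE 0.057, edgeR adjusted p = 0.0053) that passed whichever mouse was left out and was -0.18, without passing, with the offsets. Kcnab3, its relative, fell by 0.33 on the log2 scale and lost the call whichever mouse was left out (-0.38 to -0.30).

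The Kcnip genes, calcium-binding partners of the Kcnd channels, differed in direction before the offsets. Kcnip3, also known as a DNA-binding repressor, had 111 CPM in each control mouse and 95.5 and 87.5 CPM in the surgery mice (log2 fold change -0.28, SE 0.071, edgeR adjusted p = 0.031). Kcnip4 had 29.4 and 24.5 CPM in controls, against 36.2 and 38.2 CPM after surgery (0.46, SE 0.11, adjusted p = 0.028), and with the offsets the values were -0.094 for Kcnip3 and -0.12 for Kcnip4, neither of which passed. Kcnip2 had 245 and 203 CPM in the control mice and 191 and 178 CPM in the surgery mice, and did not pass (-0.28, SE 0.098, adjusted p = 0.079). Kcnip3 did not pass without either control mouse (-0.28 and -0.29) or the second surgery mouse (-0.21), nor did Kcnip4 without the second control mouse (0.33) or the second surgery mouse (0.43).

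Kcne2, a small auxiliary subunit known from epithelia, varied within the groups. Its counts were 15 and 303 without surgery and 194 and 197 with it, or 0.871 and 16.6 CPM and then 12.2 and 11.7 CPM. The summed level of 10 choroid plexus markers was also highest in the second control mouse. It was 136 and 5596 CPM without surgery and 2091 and 3548 CPM with it. Ttr made up 90.9 and 5078 CPM and then 1914 and 3255 CPM of this sum. The surgery mice differed in the sum but hardly in Kcne2. The first control mouse was the lowest for Kcne2 and for this list, and the part of choroid plexus tissue in the Kcne2 values was not tested. The 6 auxiliary genes that did not pass, Kcne2 among them, lay between -0.29 and 0.67.

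Of the 11 tested inward rectifiers, 2 rose, 2 fell and 7 did not pass. Both that rose were DEGs. Kcnj3 (chromosome 2, 55435970 to 55598145, plus strand) encodes a subunit of the G protein-gated channel through which inhibitory transmitters slow neurons. It had 71.3 and 56.1 CPM in controls, against 108 and 116 CPM after surgery. The groups were far apart and the log2 fold change was 0.81 (SE 0.12, edgeR adjusted p = 0.0064), the largest rise among members with over 100 counts in every mouse. It passed as a DEG whichever mouse was left out (0.64 to 0.99), and with the offsets it was 0.42 and did not pass. An lncRNA on the opposite strand, Gm26794, overlaps its exons and had 64, 33, 61 and 58 counts, against 1025 to 1951 counts for Kcnj3. Whether the counting used strand is not given in the sources used here.

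Kcnj16 (chromosome 11, 110968033 to 111027968, plus strand), which joins Kcnj10 in the potassium-buffering channel of glia, had 16.4 CPM in each control mouse and 23.0 and 26.5 CPM in the surgery mice. The groups did not overlap, with a log2 fold change of 0.59 (SE 0.12, edgeR adjusted p = 0.015). It did not pass without the second control mouse (0.59) or the second surgery mouse (0.49), and with the offsets it was 0.19. Kcnj10 had 154 and 137 CPM in the control mice and 184 and 147 CPM in the surgery mice, so that its groups overlapped. The 10 astrocyte markers, listed for the cell type that carries this channel, summed to 5018 and 4993 CPM in the control mice and 5309 and 5075 CPM in the surgery mice, with 3 that rose and 2 that fell, and their part in the Kcnj16 values was not tested.

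The 2 inward rectifiers that fell were Kcnj4 and Kcnj9. Kcnj4, a strong inward rectifier of forebrain neurons, had 101 and 90.9 CPM in controls, against 67.8 and 65.5 CPM after surgery (log2 fold change -0.53, SE 0.079, edgeR adjusted p = 0.0067). Kcnj9, a partner of Kcnj3, had 139 and 132 CPM in the control mice and 104 and 109 CPM in the surgery mice (-0.35, SE 0.065, adjusted p = 0.012). Both passed whichever mouse was left out, and with the offsets they were -0.24 and -0.080 and did not pass. The 7 others lay between -0.34 for Kcnj11, the pore of the ATP-sensitive channel, and 0.19 for Kcnj10.

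Of the 10 tested two-pore genes, 1 rose and 2 fell, and both that fell were DEGs. Kcnk12 (chromosome 17, 87745837 to 87797994, minus strand), a member of the halothane-inhibited subfamily, had 16.02 and 16.6 CPM in controls, against 10.3 and 9.66 CPM after surgery. The gap between the groups was larger than the difference within either, and the log2 fold change of -0.71 (SE 0.13, edgeR adjusted p = 0.012) passed whichever mouse was left out (-0.77 to -0.65). With the offsets it was -0.39 and did not pass. Its transcripts had 69.4% GC, the highest of the tested members.

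Kcnk4 (chromosome 19, 6925710 to 6934515, minus strand), a mechanically gated leak channel, had 16.02 and 16.03 CPM in the control mice and 11.2 and 9.84 CPM in the surgery mice. The log2 fold change was -0.61 (SE 0.14, edgeR adjusted p = 0.021), and -0.37 with the offsets. It passed only without the first surgery mouse (-0.72), and not when 1 of the other 3 mice was left out (-0.61 to -0.51). Its exons overlap Catsperz on the same strand, a gene with 55 to 85 counts against 166 to 293 for Kcnk4, so its value is uncertain.

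Kcnk2, which is mechanically gated like Kcnk4, rose, with 32.9 and 32.7 CPM in the control mice and 39.5 and 44.3 CPM in the surgery mice (log2 fold change 0.35, SE 0.092, edgeR adjusted p = 0.035). Its corrected value of 0.37 was nearly the same size but did not pass, and it did not pass without either control mouse (0.35 and 0.34) or the second surgery mouse (0.27). Kcnk1, the most abundant two-pore gene, had 59.2 and 66.1 CPM in controls, against 63.1 and 59.7 CPM after surgery, with overlapping groups (-0.029, SE 0.084). The 7 two-pore genes that did not pass lay between -0.34 for Kcnk9 and 0.89 for the scarce Kcnk5.

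Of the 10 tested genes of the calcium-activated group, 2 rose, 2 fell and 6 did not pass. Both that fell, Kcnn1 and Kcnn2, are small-conductance channels. Kcnn1 (chromosome 8, 70842049 to 70863258, minus strand) had 27.3 and 28.8 CPM in the control mice and 20.4 and 15.6 CPM in the surgery mice (log2 fold change -0.64, SE 0.15, edgeR adjusted p = 0.022), and was a DEG. Kcnn2 had 70.5 and 71.1 CPM in controls, against 49.9 and 57 CPM after surgery (-0.40, SE 0.086, adjusted p = 0.018). In both genes the control mice were close to each other and above both surgery mice. With the offsets the values were -0.38 and -0.34 and did not pass. Kcnn1 did not pass without the second control mouse (-0.60) or the second surgery mouse (-0.45), nor did Kcnn2 without the second control mouse (-0.40). The third small-conductance gene, Kcnn3, had a log2 fold change of 0.21 and did not pass, with both surgery mice above both control mice, and the 6 genes of the group that did not lay between -0.20 and 0.25.

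Kcnt2 (chromosome 1, 140246158 to 140612067, plus strand), a sodium-activated channel, had 19.97 and 15.4 CPM in the control mice and 27.2 and 30.4 CPM in the surgery mice. The groups did not overlap, and the log2 fold change was 0.70 (SE 0.15, edgeR adjusted p = 0.018). With the offsets it was 0.022, and without the second control mouse it was 0.52 and did not pass. Its transcripts had 39.3% GC, the lowest of the tested members. Its relative Kcnt1 had 124 and 141 CPM in controls, against 99.8 and 130 CPM after surgery, with overlapping groups (-0.20, SE 0.13).

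Kcnmb1 (chromosome 11, 33963013 to 33973641, plus strand), the auxiliary subunit of the large-conductance channel best known from smooth muscle, was scarce. Its counts were 22 and 24 without surgery and 45 and 42 with it, or 1.28 and 1.31 CPM against 2.82 and 2.49 CPM. The log2 fold change was 1.03 (SE 0.29, edgeR adjusted p = 0.044) and 0.82 with the offsets, and it lost the call whichever mouse was left out (0.92 to 1.12). The summed level of 10 endothelial and pericyte markers was 414 and 406 CPM in the control mice and 452 and 632 CPM in the surgery mice, with 3 of them higher, and their part in the Kcnmb1 values was not tested. Kcnma1, the pore of the same channel, had 236 and 237 CPM in the control mice and 262 and 290 CPM in the surgery mice, and did not pass (0.23, SE 0.068, adjusted p = 0.054).

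**Figure D4:**
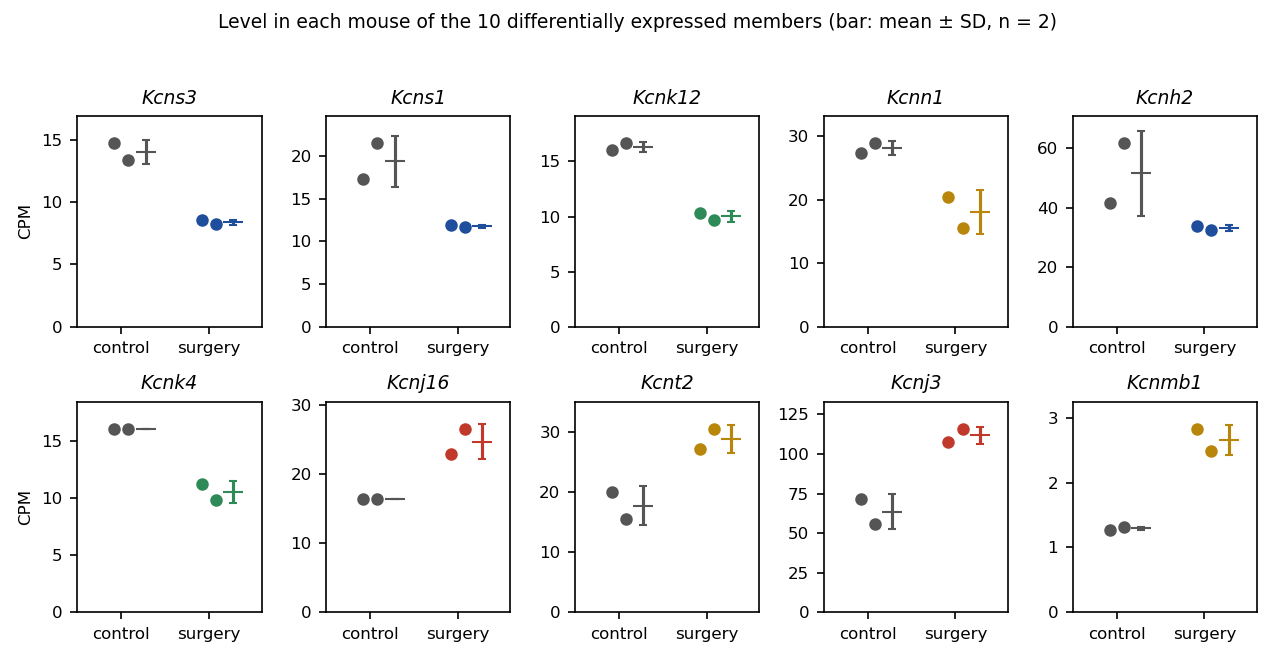
CPM of the 10 DEGs in each of the 4 mice, with a point for each mouse and a bar for the group mean and SD (n = 2). In every panel the surgery mice do not overlap the control mice, with Kcnj3 at 56.1 and 71.3 against 108 and 116 CPM.

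For some subunits that assemble together or are close relatives, the ratio of CPM per kb was taken within each mouse, as a description with no test. Kcnj3 and Kcnj9, and Kcnip4 and Kcnip3, passed in opposite directions. In the other pairs only 1 gene passed, as Kcnj6, Kcnj10 and Kcnt1 did not, and Kcnj10 had the same sign as Kcnj16. For Kcnj3 to Kcnj9 the ratio stood at 0.422 and 0.348 without surgery and at 0.855 and 0.875 with it. The pairs were chosen with the direction of their members known, so the ratios restate those values.

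For Kcnj3 to its other partner Kcnj6 the ratio stood at 2.32 and 1.90 without surgery and at 3.53 and 4.39 with it, and for Kcnj16 to Kcnj10 at 0.146 and 0.164 and then 0.171 and 0.249. Further ratios were taken between close relatives. For Kcnt2 to Kcnt1 the ratio stood at 0.222 and 0.151 without surgery and at 0.375 and 0.323 with it. For Kcnip4 to Kcnip3 it stood at 0.259 and 0.216 without surgery and at 0.370 and 0.427 with it. In these 5 pairs the gene that was relatively higher after surgery had the lower transcript GC content (43.4% for Kcnj3 and 58.8% for Kcnj9, 50.4% for Kcnj6, 43.1% for Kcnj16 and 49.6% for Kcnj10, 39.3% for Kcnt2 and 56.5% for Kcnt1, 40.3% for Kcnip4 and 55.1% for Kcnip3). In the pairs shown above the 45-base filter stretches follow the same order. Directions were known when the pairs were picked, the fold changes of the members followed GC content, and Kcnj3 recurs among the pairs. The order of GC content therefore largely follows from that choice and is no separate result, and its part in the ratios was not tested. With the length and GC offsets the log2 fold changes were 0.42 for Kcnj3, -0.080 for both Kcnj9 and Kcnj6, 0.19 for Kcnj16 and 0.15 for Kcnj10, 0.022 for Kcnt2 and 0.0075 for Kcnt1, and -0.12 for Kcnip4 and -0.094 for Kcnip3, and none of these genes passed.

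**Figure D5:**
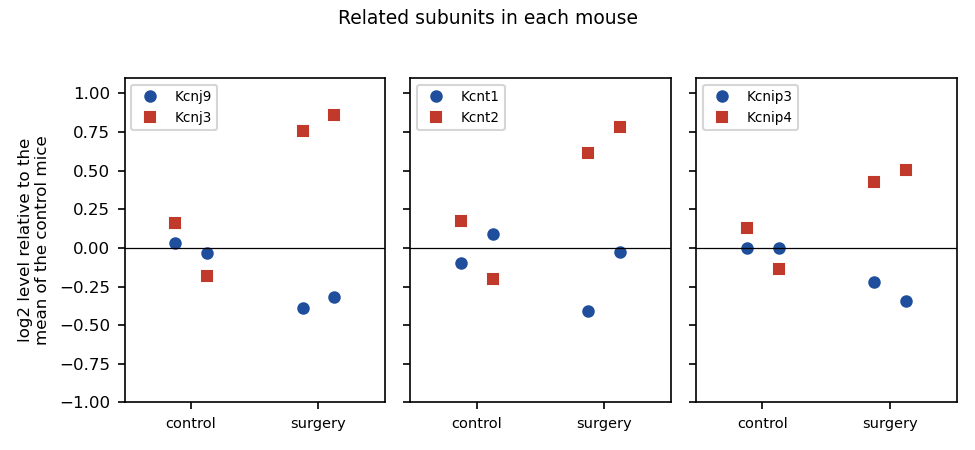
Level of 3 pairs of related subunits in each mouse, as log2 of the ratio to the control mean, with a point for each mouse. In all 3 panels the squares (Kcnj3, Kcnt2 and Kcnip4) lie above the circles of their relatives in both surgery mice, while Kcnt1 did not pass the test.

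Genes that work with these channels were listed apart from the members: 18 partners and relatives, of which 17 were in the table and were tested. Of these, 2 rose and 4 fell, where 13.1% and 12.8% of all genes did, and their median log2 fold change was -0.16, against 0.01 for all genes. Hcn2, a pacemaker channel subunit, was the 1 DEG, with 173 and 165 CPM in the control mice and 115 and 92.0 CPM in the surgery mice (-0.71, SE 0.11, edgeR adjusted p = 0.0069). Hcn3 (-0.50), the ATP-sensitive channel subunit Abcc8 (-0.44) and the Kcnd partner Dpp6 (-0.30) fell as well. The other Kcnd partner Dpp10 (0.42) and the secreted Lgi1 (0.36), which acts on Kcna channels, rose. With the offsets none of these 6 partners passed, Hcn2 was at -0.37, and the values of Dpp10 (-0.22) and Lgi1 (-0.025) turned in sign. Without the first surgery mouse 3 partners were lower DEGs (all genes, 3.43%), and without the second surgery mouse Hcn2 was no longer one (all genes, 1.51%).

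All markers of the dentate gyrus, CA1 and CA3 fields of the hippocampus were detected. The dentate gyrus list summed to 450 and 354 CPM in the control mice and 472 and 416 CPM in the surgery mice. The CA3 list summed to 367 and 337 CPM and then 362 and 345 CPM, and in both lists the groups overlapped. Other marker lists differed in level between the groups. The 5 CA1 markers summed to 784 and 806 CPM in the control mice and 571 and 545 CPM in the surgery mice, with 3 that fell. The 10 neuron markers summed to 12973 and 12700 CPM in the control mice and 11767 and 11524 CPM in the surgery mice, with 1 that rose and 4 that fell. The 10 thalamus markers summed to 153 and 166 CPM and then 214 and 213 CPM, with 1 that rose. A list of 4 nuclear RNAs summed to 7122 and 6999 CPM in the control mice and 8094 and 9259 CPM in the surgery mice, with 2 that rose. The 10 interneuron markers, a type that holds the fast-spiking neurons, summed to 1397 and 1313 CPM in the control mice and 1293 and 1085 CPM in the surgery mice, with 2 that rose and 3 that fell. The oligodendrocyte precursor list summed to 403 and 375 CPM and then 335 and 288 CPM, with 3 of 8 that fell, and the striatum list to 206 and 247 CPM and then 190 and 198 CPM, with 1 of 10 that fell. Of all genes tested, 13.1% rose and 12.8% fell. With the length and GC offsets the thalamus marker Zic1 (1.44) and the nuclear RNA Snhg11 (0.52) still passed, but Malat1 did not. The CA1, neuron, interneuron, oligodendrocyte precursor and striatum markers that had risen or fallen no longer passed with them. The part of these differences in the potassium channel values was not tested.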

How the data were processed

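Hippocampal RNA of 2 control and 2 surgery mice was measured, 1 library a mouse, grouped by the labels. The authors deposited 1 table of raw gene counts, and per the submitters' processing notes the tools were Bowtie2 2.2.3, HISAT2 2.1.0, TopHat2 and HTSeq 0.6.0 with mm10; their order and the use of strand are not given in the sources used here. The deposited columns of fold changes and p-values were not used, and 24 symbols turned into dates by a spreadsheet were restored. Genes were filtered (filterByExpr, minimum count 10), scaled by TMM and tested with edgeR 4.0.16 (glmQLFit, glmQLFTest) in R 4.3.3, surgery against control, with Benjamini-Hochberg adjustment over 17144 genes. Standard errors and fold changes are on the log2 scale of that fit. CPM are counts over the TMM-scaled total of the tested genes. Length and GC content came from GENCODE M21 transcripts (29238 of 29300 genes), and the offsets from smooth fits of each library (mgcv 1.9.3). Members and lists were chosen with earlier results of these data known. Named genes are the members that passed, the 3 most abundant per kb of each class and the channel partners that passed, and others (Kcne2, Kcnj11, Kcnk5, Kcnk9, Kcnn3, Kcnj6, Kcnq1ot1 and overlapping genes) were chosen after their values were seen. Coding DNA is shown where the rule asked for protein sequence. The scripts were tested on simulated data. Alternatives were library totals, DESeq2 1.42.0, no filter, a mean of at least 1 CPM, no fold limit, the offsets, a replicate block and leaving out each mouse. Totals of 15763432 to 18573386 counts a mouse make 10 counts about the floor of what could be tested. Some genes that the rules would name are not reported here by name, though they count in the totals.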

Additional observations from a re-analysis of the deposited data

How the results depend on the processing

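The control and surgery mice share only replicate numbers (r = 0.24 between the deviations of same-numbered mice from their group means, over 2 pairs). With the replicate number as a block, DEGs among the members were 4 higher and 6 lower as before (1289 and 427 of 17144 over all genes), and 31 members passed, the 27 and also Kcnma1, Kcnip2, Kcnj11 and Kcnc1. A mean of at least 1 CPM changed no DEG count. With no fold limit there were 8 higher and 19 lower calls: 2 and 10 for voltage-gated pore genes, 1 and 3 for auxiliary, 2 and 2 for inward rectifiers, 1 and 2 for two-pore genes and 2 and 2 for the calcium-activated group. With length and GC offsets, with or without the block, 0 higher and 1 lower DEG (Kcns3, voltage-gated pore-forming) remained, with 0 higher inward rectifiers, 0 lower two-pore genes, 0 in the calcium-activated group and 0 channel partners. At an adjusted p under 0.05 the offsets left 1 of the 27 calls, and the offsets with the block left 6 (Kcns3, Kcnj3, Kcnk2, Kcnn2, Kcnab2 and Kcnh1). The signs of Kcnip4 (-0.12, with block -0.12), Kcnk1 (0.10, with block 0.10), Kcnt1 (0.0075, with block 0.00020) and, without the block, Kcnq3 (-0.00016) turned. With library totals alone there was 1 higher voltage-gated pore DEG and 1 lower two-pore DEG, Kcnk1 was at 0.018, and the median of all genes was 0.060 in place of 0.012, with 1379 higher and 224 lower DEGs over all genes in place of 1158 and 386. DESeq2 gave 2 higher DEGs, 1 inward rectifier and 1 calcium-activated, and no adjusted p for Kcnmb1 (876 higher and 371 lower of 17144 over all genes). No filter gave 1 higher DEG, an inward rectifier, and 0 in the calcium-activated group in either direction (800 higher and 314 lower of 29300 over all genes). Leaving out 1 mouse at a time gave 2 to 5 higher and 3 to 7 lower DEGs, where all genes gave 754 to 1312 and 254 to 614. These were 0 to 2 higher and 2 to 4 lower voltage-gated pore genes, 0 to 1 higher auxiliary genes, 1 to 2 higher and 0 to 1 lower inward rectifiers, 1 to 2 lower two-pore genes, 0 to 1 higher and 0 to 1 lower calcium-activated genes, and 0 to 3 lower partners, whose alternatives were chosen after seeing the data. Kcnk1 ranged from -0.11 to 0.050 (0.015 without the second surgery mouse) and Kcnj10 from -0.0042 (without the first surgery mouse) to 0.35. The causes of these changes were not tested. Calls of scarce members such as Kcnmb1 (22 to 45 counts) are limited by depth and by 2 mice a group.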

Other observations

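Kcnq1ot1, a noncoding RNA transcribed from within Kcnq1 on the opposite strand and known for silencing neighbours of the imprinted Kcnq1 domain, is no channel subunit and was read apart. Its counts were 245 and 183 without surgery and 387 and 507 with it. Both surgery mice were above both control mice, and the log2 fold change was 1.17 (SE 0.19, edgeR adjusted p = 0.0084), or 0.53 with length and GC offsets, where it did not pass. Kcnq1 itself did not pass. Of the other antisense transcripts named for a potassium channel gene, Kcnd3os (-0.50) and Kcnmb4os2 (0.56) were tested and did not pass.

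Exons of 25 of the 90 members overlap a gene on the opposite strand, 11 of the 27 passed members among them, and 2 overlap a gene on the same strand. More than 10% of the 75-nt windows of 6 members (Kcnj3, Kcna6, Kcnmb4, Kcnj14 and Kcnk4 among them) are shared with transcripts of a different gene. Kcnn2, which fell, is overlapped by the antisense transcript A330093E20Rik, with 28 and 17 counts without surgery and 40 and 51 with it, against 796 to 1299 counts for Kcnn2.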
